A study of Mus musculus with 4 samples.

Results

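The 33 genes described here make and regulate sterols, make fatty acids, or carry cholesterol out of the cell, and they were taken by symbol from a list of enzymes, regulators and transporters. All 33 were among the 14082 genes listed in each library and all were among the 13358 genes that passed the filter on low counts. RNA had been sequenced in bulk from ovalbumin-specific CD8 T cells sorted by flow cytometry out of subcutaneous E.G7 tumours, E.G7 being an ovalbumin-expressing line derived from a mouse T lymphoma. The libraries labelled KO came from Cd8-cre Smad4-fl/fl mice (n = 2) and the libraries labelled WT from Smad4-fl/fl mice (n = 2), with hosts of 6 to 10 weeks. Both groups carry the floxed Smad4 alleles and the same tumour line, and the groups differ by label only in Cd8-cre, a recombinase driven from Cd8 sequences, so cells without Cd8 activity need not delete Smad4. Whether a library came from 1 animal or a pool, and whether both of a group had separate sources, the labels do not say. The p-values therefore reflect library-to-library spread alone, which may be technical.

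Cells balance cholesterol with a pair of opposed programmes. When sterol in the endoplasmic reticulum is low, the escort protein SCAP carries SREBP precursors to the Golgi, where they are cut, and the released SREBP2 raises the genes of the mevalonate and sterol pathway, while SREBP1 favours the genes of fatty acid synthesis. When sterol is high, INSIG proteins retain SCAP, and oxysterols activate the LXR nuclear receptors, which raise the efflux transporters ABCA1 and ABCG1 and the E3 ligase MYLIP. Activated T cells are known to raise sterol synthesis for growth, and macrophages are known for strong LXR-driven efflux.

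Counts over all genes totalled 25806382 and 26218277 in the libraries labelled KO and 24366540 and 25790107 in those labelled WT. Smad4 itself had 29.3 and 40.3 CPM (gene counts scaled to library size with edgeR's TMM factors) in the libraries labelled KO, against 31.7 and 29.4 CPM in those labelled WT. That gene was therefore not lower where the label says knockout (log2 fold change 0.19, edgeR adjusted p = 0.397), and every direction below follows the labels KO and WT. Reads from exons outside the floxed part, or from cells without Cre, enter the same count. The labelled cell type was present but not alone. Per length, Cd8a stood at 63.8 and 65.8 FPKM (fragments scaled to gene length and library size) in the libraries labelled KO and at 125 and 121 FPKM in those labelled WT. Lyz2, a lysozyme gene of macrophages and neutrophils, stood at 8516 to 9068 FPKM in the 4 libraries.

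Of the 18 sterol synthesis genes, 7 were higher in the libraries labelled KO and 11 did not pass the test, and none of the 6 LXR, efflux and storage genes passed in either direction. Of the 33 genes, 10 were higher and 0 were lower at an adjusted p under 0.05 (edgeR quasi-likelihood test, Benjamini-Hochberg over all 13358 genes). In the same comparison 10.1% of all tested genes were called higher and 11.0% lower, whereas 30.3% of the 33 were called higher. The 33 had been chosen with earlier results of these data known, so this contrast is a description only. None of the 33 was lower at an unadjusted p under 0.05 either (0 genes, with 17 higher), and DESeq2 and limma-voom each called 10 higher and 0 lower. The number higher was 6 without WT replicate 1 and 5 without WT replicate 2, where calls over all genes also dropped, to 714 and 837 higher, against 1354 with all libraries. Folds of the 10 called genes ran from 1.19 to 1.88, with adjusted p between 0.000171 and 0.0238 (edgeR). Each of the 10 had both libraries labelled KO above both labelled WT, an arrangement found in 21 of the 33 genes and in 29.7% of all tested genes. The opposite arrangement, found in 30.0% of all tested genes, held for 3 of the 33. The median log2 fold change was 0.22 over the 33 genes and -0.0037 over all tested genes. With library totals alone as the scaling, the median over all genes moved to 0.082 and that over the 33 genes to 0.31. Higher calls were 47.9% of all calls (1354 higher and 1472 lower) and became 67.5% under that scaling (2105 and 1013 genes, or 15.8% and 7.58% of those tested). Under it 17 of the 33 were called higher and 0 lower.

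**Figure D1:**
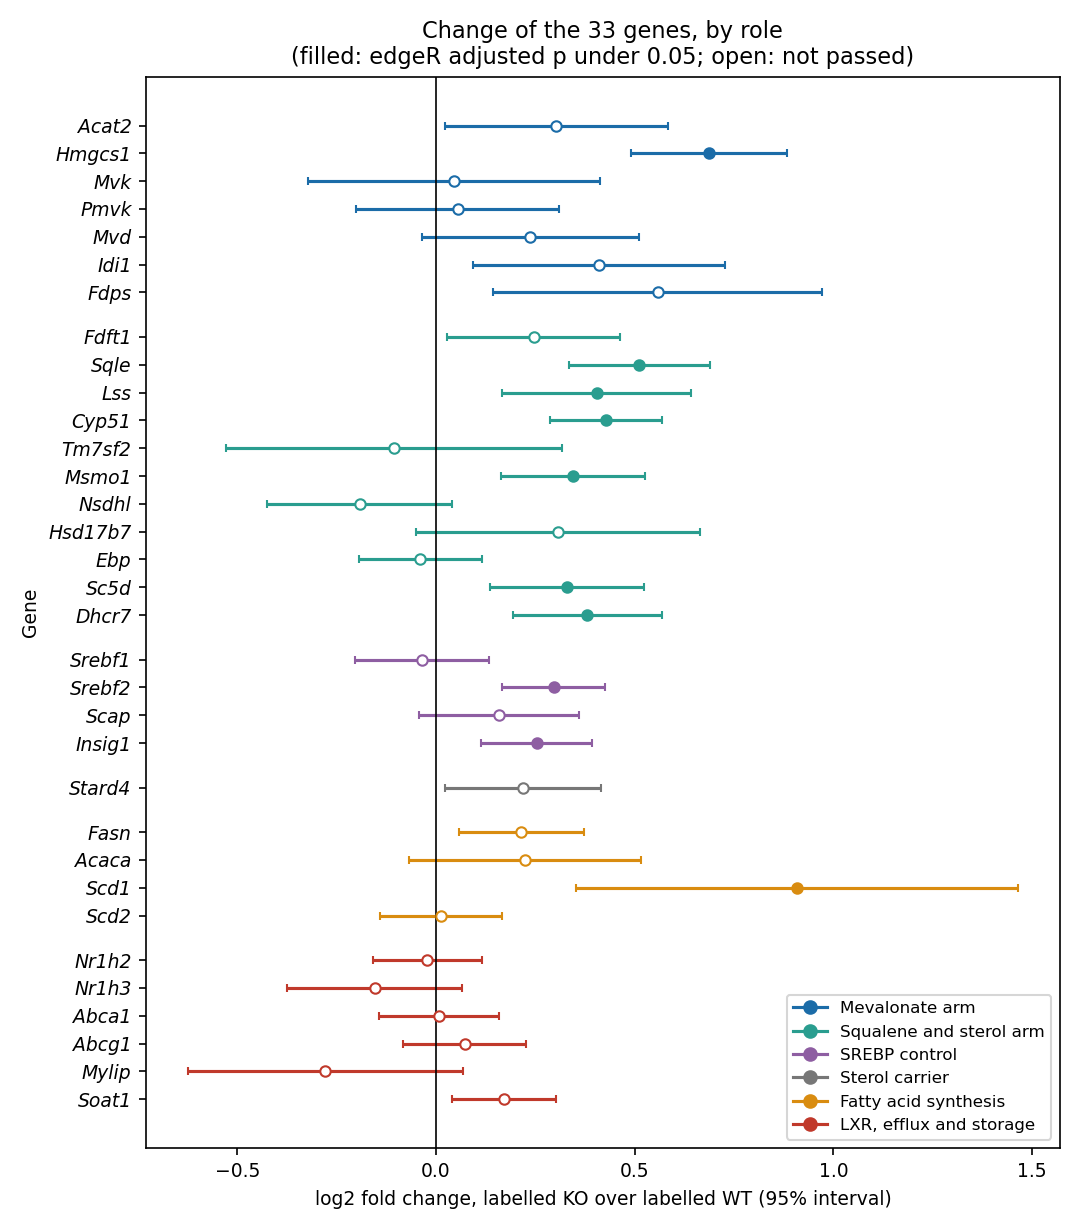
Log2 fold change of each of the 33 genes, libraries labelled KO over libraries labelled WT, with its 95% interval from the edgeR fit. Filled points passed an adjusted p of 0.05 and open points did not. The 10 filled points all lie right of 0, from 0.25 for Insig1 to 0.91 for Scd1, and the 6 red points of the LXR, efflux and storage genes lie between -0.28 and 0.17.

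In the mevalonate arm, which builds isoprenoid units from acetyl-CoA, 1 of 7 genes was called higher and 0 lower. Over all tested genes the shares were 10.1% and 11.0%, so this count is near the share called higher. That gene was Hmgcs1, which encodes the cytosolic HMG-CoA synthase and lies on chromosome 13 (chr13:119690379-119708260, plus strand, mm10). Hmgcs1 had 63.7 and 70.6 CPM in the libraries labelled KO, against 40.6 and 42.8 CPM in those labelled WT. Both libraries labelled KO stood well above both labelled WT, and the gap between the groups exceeded the differences within them. Its log2 fold change was 0.69 ± 0.090 (SE), or 1.61-fold (edgeR adjusted p = 0.000171), and the 95% interval ran from 0.49 to 0.88. This was the lowest adjusted p of the 33 genes. Fdps, which makes farnesyl diphosphate for both sterols and protein prenylation, had 13.8 and 11.0 CPM in the libraries labelled KO and 9.03 and 7.84 CPM in those labelled WT. Idi1, the isomerase before it in the pathway, had 17.5 and 20 CPM in the libraries labelled KO and 14.4 and 13.8 CPM in those labelled WT. Neither passed the threshold, although the groups did not overlap: Fdps had a log2 fold change of 0.56 ± 0.19 (SE; edgeR adjusted p = 0.0556) and Idi1 of 0.41 ± 0.15 (SE; edgeR adjusted p = 0.0659). Acat2, a thiolase that starts the pathway, and Mvd, the decarboxylase that yields the first isoprenoid unit, had log2 fold changes of 0.30 and 0.24 (edgeR adjusted p = 0.123 and 0.213). The kinase genes Mvk and Pmvk, which act between Hmgcs1 and Mvd, overlapped between the groups and had log2 fold changes of 0.045 and 0.054. The interval of Mvk ran from -0.32 to 0.41.

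In the arm that turns farnesyl diphosphate into squalene and then cholesterol, 6 of 11 genes were called higher and 0 lower (all tested genes: 10.1% and 11.0%). With the mevalonate arm this gave 7 of 18 synthesis genes higher, or 38.9%, with a median log2 fold change of 0.32, and 4 of 18 without WT replicate 2. Sqle, the squalene epoxidase that performs the first oxygenation and is a control point of the pathway, had 84.4 and 95.3 CPM in the libraries labelled KO and 64.0 and 62.0 CPM in those labelled WT. Its log2 fold change was 0.51 ± 0.082 (SE), or 1.43-fold (edgeR adjusted p = 0.000734). Cyp51, the lanosterol demethylase and the only cytochrome P450 among the 33, had 130 and 126 CPM in the libraries labelled KO and 95.6 and 94.5 CPM in those labelled WT. The replicates of each group lay close together, and the change was 0.43 ± 0.064 (log2, SE), or 1.35-fold (edgeR adjusted p = 0.000489). Exons of Cyp51 overlap Akap9 on the opposite strand, and the strandedness of the counting is not given in the sources used here, so its count is uncertain. Akap9 had 62.6 and 51.1 CPM in the libraries labelled KO and 54.5 and 47.4 CPM in those labelled WT, and did not pass (edgeR adjusted p = 0.350).

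The other called genes of this arm act before and after Cyp51. Lss, which closes squalene epoxide into the first sterol, lanosterol, had 32.5 and 34.2 CPM in the libraries labelled KO and 25.4 and 25.0 CPM in those labelled WT (1.32-fold, edgeR adjusted p = 0.0195). Dhcr7, the reductase of a final step towards cholesterol, had 61.8 and 68.3 CPM in the libraries labelled KO and 49.7 and 50.1 CPM in those labelled WT (1.30-fold, edgeR adjusted p = 0.00752). Msmo1, a methylsterol oxidase, had 63.8 and 61.7 CPM in the libraries labelled KO and 50.4 and 48.5 CPM in those labelled WT (1.27-fold, edgeR adjusted p = 0.0107). In all 3 the groups were separate, and the 2 libraries of a group differed by less than the gap between the groups. Sc5d, the sterol desaturase whose product Dhcr7 reduces, had 55.2 and 52.3 CPM in the libraries labelled KO and 42.2 and 43.3 CPM in those labelled WT (1.26-fold, edgeR adjusted p = 0.0195). The Lss and Sc5d calls did not survive the loss of either library labelled WT: edgeR's adjusted p was 0.114 and 0.138 without WT replicate 1, and 0.121 and 0.0767 without WT replicate 2. Leaving out WT replicate 2 also ended the call of Msmo1 (edgeR adjusted p = 0.0806). Sqle, Cyp51, Dhcr7 and Hmgcs1 kept theirs under each of the 12 alternatives at this threshold.

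The other 5 enzymes of the arm did not pass the test. Ebp, the sterol isomerase, had 84.9 and 90.1 CPM in the libraries labelled KO and 91.3 and 88.5 CPM in those labelled WT, so the groups overlapped (log2 fold change -0.04, interval -0.19 to 0.11). Nsdhl, the dehydrogenase that acts with Msmo1 in removing methyl groups, had 28.8 CPM in both libraries labelled KO and 33.8 and 32.0 CPM in those labelled WT. It was the only synthesis gene with both libraries labelled KO below both labelled WT, and it did not pass (log2 fold change -0.19, edgeR adjusted p = 0.239). The upper bound of Nsdhl's interval, 0.041, and that of Ebp, 0.11, lay under the lower bounds of the called genes Sqle, Cyp51, Msmo1, Sc5d, Lss and Dhcr7, which ran from 0.14 to 0.34. Hsd17b7, a keto-reductase of the same demethylation steps, had a log2 fold change of 0.31, and Tm7sf2, a sterol reductase, one of -0.11 (edgeR adjusted p = 0.220 and 0.762). Fdft1, the squalene synthase, was at 40.6 and 38.4 CPM in the libraries labelled KO and at 33.1 and 33.5 CPM in those labelled WT (edgeR adjusted p = 0.107). Fdft1 shares exon sequence with Ctsb on the opposite strand and Tm7sf2 with Vps51 on the same strand, so both counts are uncertain. Ctsb, a lysosomal protease gene, had 6506 and 6287 CPM in the libraries labelled KO and 6174 and 6518 CPM in those labelled WT (edgeR adjusted p = 0.911).

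**Figure D2:**
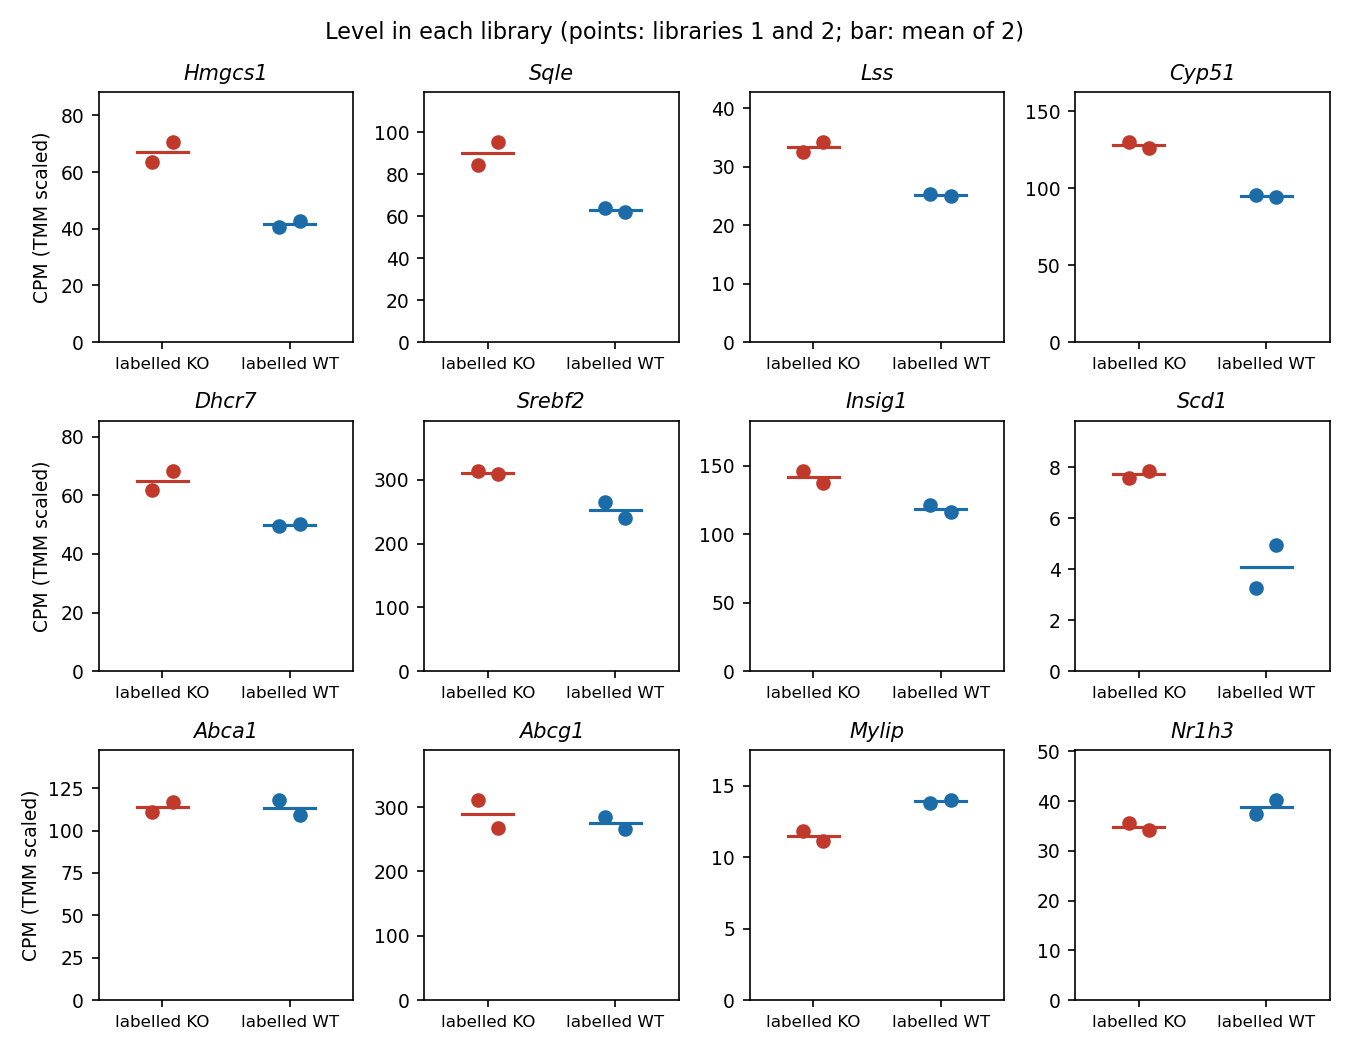
Level of 12 of the genes in each library, in TMM-scaled CPM on axes that start at 0, with the 2 libraries labelled KO (red) left of the 2 labelled WT (blue) and a bar at each mean. The 8 called genes shown in the upper rows are separate between groups, while Abca1 and Abcg1 overlap, and Mylip and Nr1h3 lie lower in the libraries labelled KO without passing the test.

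Among the regulators, 2 of 4 were called higher, against 10.1% of all tested genes. Srebf2, which encodes SREBP2 and is itself one of its targets, had 314 and 309 CPM in the libraries labelled KO and 266 and 241 CPM in those labelled WT (1.23-fold, log2 fold change 0.30 ± 0.060 SE, edgeR adjusted p = 0.00396). Insig1, the retention protein and a sensitive SREBP target, had 146 and 137 CPM in the libraries labelled KO and 121 and 116 CPM in those labelled WT (1.19-fold, edgeR adjusted p = 0.0144). Srebf1, which encodes SREBP1 and is also an LXR target, had 74.8 and 79.1 CPM in the libraries labelled KO and 82.1 and 75.5 CPM in those labelled WT. The Srebf1 groups overlapped, and the interval of its change, -0.20 to 0.13, lay below that of Srebf2, 0.17 to 0.43. Exons of Srebf1 overlap Rai1 on the opposite strand, which makes its count uncertain, and Rai1 had a log2 fold change of -0.058 (edgeR adjusted p = 0.773). The ratio of Srebf2 to Srebf1 within a library, which no scaling between libraries can alter, was 4.19 and 3.91 in the libraries labelled KO and 3.24 and 3.20 in those labelled WT. Scap had a log2 fold change of 0.16 (edgeR adjusted p = 0.261), and Stard4, a carrier that moves sterol between membranes, one of 0.22 (edgeR adjusted p = 0.111). Leaving out WT replicate 2 ended the calls of Srebf2 and Insig1 (edgeR adjusted p = 0.0522 and 0.105), and leaving out WT replicate 1 ended that of Insig1 (edgeR adjusted p = 0.0501).

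The sequence before the start of these genes is shown because SREBPs bind a short sterol regulatory element in the promoters of their targets, often beside NF-Y and Sp1 boxes. Windows from 250 bases before to 50 bases after the start were held by the RefSeq table (GRCm38.p6) for 26 of the 33 genes. The letters TCACNCCA, a core of the sterol element, were searched on both strands, as were the other 3 motifs given here, none of which contains another. They occurred in 4.36% of all 32851 windows searched and in 3 of the 26, namely Hmgcs1, Msmo1 and Srebf2, all of which were called higher. The called genes Lss, Cyp51, Sc5d, Dhcr7 and Insig1 had a window without a match, and the called genes Sqle and Scd1 had no window. For the 3 genes with a match, the 250 bases before the RefSeq start follow, 5′ to 3′ on the gene's strand, with the matching letters in capitals. The windows are chr13:119690101-119690350 (plus strand), chr8:64733579-64733828 (minus strand) and chr15:82147019-82147268 (plus strand).
Hmgcs1: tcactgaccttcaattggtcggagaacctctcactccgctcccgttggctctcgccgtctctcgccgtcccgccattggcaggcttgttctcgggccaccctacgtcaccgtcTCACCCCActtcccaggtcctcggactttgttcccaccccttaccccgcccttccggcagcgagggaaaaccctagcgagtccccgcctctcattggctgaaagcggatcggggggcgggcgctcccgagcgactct
Msmo1: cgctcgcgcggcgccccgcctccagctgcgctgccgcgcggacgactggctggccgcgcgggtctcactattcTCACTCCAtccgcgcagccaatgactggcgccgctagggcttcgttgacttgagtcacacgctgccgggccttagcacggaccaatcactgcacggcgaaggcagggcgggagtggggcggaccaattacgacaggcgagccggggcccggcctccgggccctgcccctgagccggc
Srebf2: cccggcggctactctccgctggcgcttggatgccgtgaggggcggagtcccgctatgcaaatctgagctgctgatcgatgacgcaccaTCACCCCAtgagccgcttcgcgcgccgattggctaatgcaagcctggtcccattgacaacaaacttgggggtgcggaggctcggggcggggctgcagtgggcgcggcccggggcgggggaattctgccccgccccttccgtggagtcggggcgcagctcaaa

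Counted from the RefSeq start, the matches begin at -137 in Hmgcs1, -177 in Msmo1 and -162 in Srebf2. The Hmgcs1 and Srebf2 matches have the same letters. CCAAT, the NF-Y box, was in 13 of 15 windows of synthesis genes and 2 of 5 windows of LXR, efflux and storage genes, and in 37.4% of all windows. GGGCGG, the Sp1 box, was in 14 of those 15 and 3 of those 5 windows, and in 35.7% of all windows. GGTCA repeated on one strand after 4 bases was in 0 of the 26 windows and in 0.0457% of all windows. In a DR4 repeat, a form of the LXR element, the 4 bases lie between full copies of AGGTCA. The shorter letters searched stand closer together than they do in that repeat, so these counts do not describe LXR elements. A match is a string of letters and not a measured site, and an absent match says nothing about binding outside these letters and this window. For Acaca and Nr1h3 the RefSeq start of the nearest window lay 65766 and 7718 bases from the GENCODE M21 gene start, so the window need not be the promoter at that start. For Tm7sf2 the distance was 523 bases. For Msmo1 the distance was 214 bases, with the RefSeq start inside the M21 gene, whose start is at 64733792 on the minus strand. The Msmo1 match at -177 therefore falls within the M21 gene and not before it.

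The genes that sense and export surplus cholesterol did not pass the test. None of 6 was called higher or lower by edgeR, DESeq2 or limma-voom (0 in each direction), and at an unadjusted p under 0.05 edgeR had 1 higher and 0 lower. Abca1, the transporter that loads cholesterol onto apolipoprotein A, had 111 and 117 CPM in the libraries labelled KO and 118 and 109 CPM in those labelled WT. Its groups overlapped, with a log2 fold change of 0.0077 and an interval of -0.14 to 0.16. Abcg1, which passes cholesterol to HDL, had 311 and 267 CPM in the libraries labelled KO and 284 and 266 CPM in those labelled WT (log2 fold change 0.072, interval -0.083 to 0.23). Mylip, the ligase that sends lipoprotein receptors to degradation, had 11.8 and 11.1 CPM in the libraries labelled KO and 13.8 and 14.0 CPM in those labelled WT. These groups were separate, yet the log2 fold change of -0.28 did not pass (edgeR adjusted p = 0.253).

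The receptors themselves were level or slightly lower. Nr1h2, which encodes LXR beta, had 120 and 117 CPM in the libraries labelled KO and 119 and 121 CPM in those labelled WT (log2 fold change -0.022, interval -0.16 to 0.11). Nr1h3, which encodes LXR alpha and is characteristic of macrophages and liver, had 35.6 and 34.1 CPM in the libraries labelled KO and 37.4 and 40.2 CPM in those labelled WT (log2 fold change -0.15, edgeR adjusted p = 0.327). Soat1, which esterifies cholesterol for storage, had 163 and 165 CPM in the libraries labelled KO and 141 and 150 CPM in those labelled WT. It was the 1 gene of the 6 at an unadjusted p under 0.05, with a log2 fold change of 0.17 ± 0.061 (SE; edgeR adjusted p = 0.0641). With library totals alone Soat1 became a call (log2 fold change 0.26, edgeR adjusted p = 0.00822).

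Ratios within a library set the opposed programmes side by side without any scaling between libraries. The summed CPM of the 18 synthesis genes over that of Abca1, Abcg1 and Mylip was 1.83 and 2.08 in the libraries labelled KO and 1.59 and 1.67 in those labelled WT. The groups did not overlap, and the ratio of the means was 1.20. Hmgcs1 over Abca1 was 0.574 and 0.605 in the libraries labelled KO and 0.344 and 0.395 in those labelled WT, a ratio of means of 1.60. For the 4 fatty acid genes over the same efflux genes the values were 0.628 and 0.737 in the libraries labelled KO and 0.646 and 0.638 in those labelled WT, and there the groups overlapped. These ratios are descriptions of 4 libraries with no test.

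**Figure D3:**
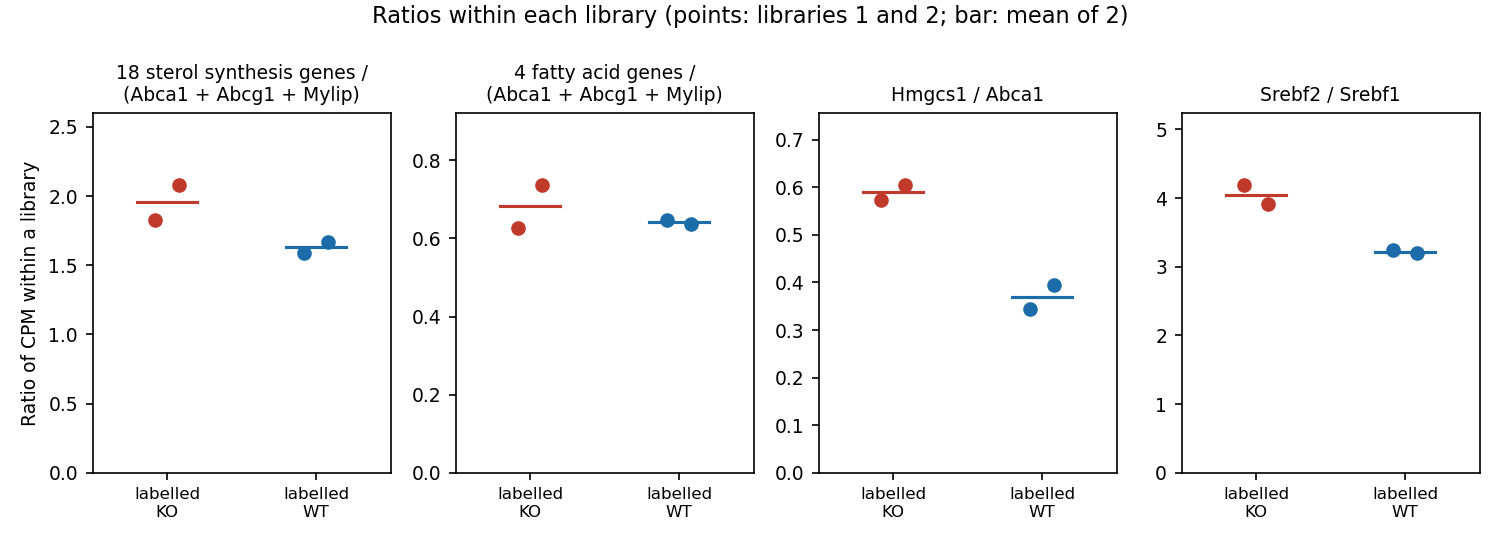
Ratios of CPM within each library, with libraries labelled KO (red) left of those labelled WT (blue), points for libraries 1 and 2, and a bar at the mean. The synthesis-to-efflux ratio, Hmgcs1 over Abca1 and Srebf2 over Srebf1 are higher in both libraries labelled KO, while the fatty-acid-to-efflux ratio (0.628 and 0.737 in the libraries labelled KO, 0.646 and 0.638 in those labelled WT) overlaps.

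Of the 4 fatty acid genes, 1 was called higher and 0 lower, against 10.1% and 11.0% of all tested genes. Scd1, a stearoyl-CoA desaturase that makes monounsaturated fatty acids and responds to both SREBP1 and LXR, had 7.60 and 7.86 CPM in the libraries labelled KO and 3.25 and 4.96 CPM in those labelled WT. It had the largest fold of the 33 genes, 1.88 (log2 fold change 0.91 ± 0.26 SE, edgeR adjusted p = 0.0238), at one of the lowest levels, 202 and 212 counts in the libraries labelled KO and 77 and 124 in those labelled WT. The 2 libraries labelled WT differed more than those labelled KO, and without WT replicate 1 the log2 fold change was 0.64 and did not pass (edgeR adjusted p = 0.245). Scd2, its close paralog on the same chromosome, had 135 and 142 CPM in the libraries labelled KO and 146 and 129 CPM in those labelled WT, with overlapping groups (log2 fold change 0.012). Per length, Scd2 exceeded Scd1 by 15.9 and 16.2 times in the libraries labelled KO and by 40.2 and 23.3 times in those labelled WT. Reads shared by the 2 paralogs could be split by the counting, so the Scd1 value is uncertain. Fasn, the fatty acid synthase, had 109 and 122 CPM in the libraries labelled KO and 102 and 97.3 CPM in those labelled WT. It stood near the threshold (log2 fold change 0.21, edgeR adjusted p = 0.0531) and passed with RLE or upper quartile factors (edgeR adjusted p = 0.0479 and 0.0456). Acaca, the carboxylase that commits acetyl-CoA to fatty acids, had a log2 fold change of 0.22 and did not pass (edgeR adjusted p = 0.279).

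Per length, Insig1, Srebf2 and Abcg1 averaged highest of the 33 genes in the libraries labelled KO, and Ebp, Insig1 and Abcg1 in those labelled WT. Insig1 averaged 44.3 ± 2.14 FPKM in the libraries labelled KO and 36.9 ± 0.962 FPKM in those labelled WT (SD, n = 2 each). Srebf2 averaged 42.0 ± 0.521 and Abcg1 38.4 ± 4.21 FPKM in the libraries labelled KO, against 34.0 ± 2.26 and 36.3 ± 1.64 FPKM in those labelled WT. Within each library labelled KO the order was Insig1, Srebf2, Abcg1. The values were 45.8, 42.3 and 41.4 FPKM in KO replicate 1 and 42.8, 41.6 and 35.4 FPKM in KO replicate 2. With 2 libraries and no test, this order is a description only. Ebp, at 36.7 ± 1.45 FPKM in the libraries labelled KO and 37.5 ± 0.728 FPKM in those labelled WT, was the highest enzyme of sterol synthesis, and Cyp51 was next among them at 28.0 ± 0.684 FPKM in the libraries labelled KO and 20.7 ± 0.123 FPKM in those labelled WT. At the other end, Acaca, at 1.13 ± 0.0261 FPKM in the libraries labelled KO and 0.967 ± 0.0573 FPKM in those labelled WT, Scd1, Tm7sf2, Hsd17b7, Fdps and Lss each averaged under 3 FPKM in both groups. The called genes lay at both ends of this order.

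**Figure D4:**
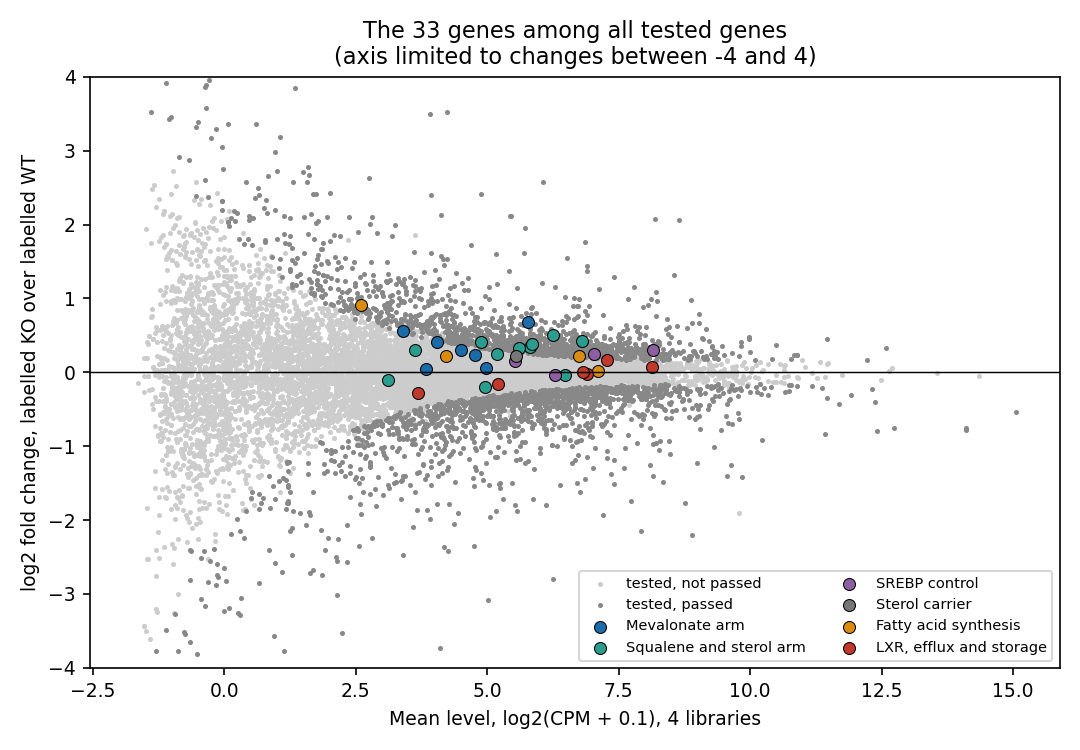
Mean level, as log2(CPM + 0.1) over the 4 libraries, against log2 fold change for all 13358 tested genes (grey, darker where the adjusted p was under 0.05, with larger changes than the vertical axis holds not drawn), with the 33 genes in colour by role. The coloured points lie within the range -0.28 to 0.91, most of the sterol synthesis genes above 0, in the body of the cloud where many other genes changed more.

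Other genes of the same pathways were counted in the same way, beside the 10.1% of all tested genes called higher and the 11.0% called lower. Of 18 other genes of sterol synthesis, uptake and SREBP control, 3 were higher and 1 lower (3 and 0 by DESeq2), with a median log2 fold change of 0.17. Tmem97, a sterol-responsive membrane protein, had 111 and 110 CPM in the libraries labelled KO and 71.6 and 66.5 CPM in those labelled WT (1.61-fold, edgeR adjusted p = 2.49e-05). Of 13 other fatty acid genes 5 were higher and 0 lower (DESeq2 called 4 and 0, limma-voom 5 and 0, and 6 were higher and 0 lower at an unadjusted p under 0.05), with a median of 0.28. Fads2, a desaturase of polyunsaturated fatty acids, had 12.9 and 11.7 CPM in the libraries labelled KO and 4.77 and 4.96 CPM in those labelled WT (2.53-fold, edgeR adjusted p = 0.000413). The carboxylase gene Acacb, the acyl-CoA ligase gene Acsl3 and the elongase gene Elovl6 were 1.44-fold, 1.88-fold and 1.37-fold higher (edgeR adjusted p = 0.0141, 0.0148 and 0.0205). Elovl6 and Acacb lost their calls without either library labelled WT, Acacb also without KO replicate 1, and Acsl3 without WT replicate 2 (edgeR adjusted p between 0.0663 and 0.169). Acsl3 also shares exon sequence with Utp14b and is uncertain. The other called one, named after its value was seen, was the desaturase gene Fads1, at 35.2 and 34.1 CPM in the libraries labelled KO and 29.3 and 23.6 CPM in those labelled WT (edgeR adjusted p = 0.0401, or 0.373 without WT replicate 2; DESeq2 adjusted p = 0.0545).

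Among 11 tested LXR partners and other LXR targets, 1 was higher and 3 lower, with a median log2 fold change of -0.05. DESeq2 and limma-voom each called 2 higher and 3 lower. This and the next 2 lists hold few genes, and the shares of all tested genes were 10.1% higher and 11.0% lower. Lpl, the lipoprotein lipase of macrophages and fat tissue, had 281 and 285 CPM in the libraries labelled KO and 451 and 422 CPM in those labelled WT (log2 fold change -0.62, edgeR adjusted p = 6.48e-06). The phosphodiesterase gene Smpdl3a had a log2 fold change of -0.23 (edgeR adjusted p = 0.0291), a call that ended under scaling by totals, without KO replicate 2 and without either library labelled WT (edgeR adjusted p between 0.115 and 0.143). Of 11 genes of the isoprenoid branch, 0 were higher and 1 was lower by edgeR, DESeq2 and limma-voom alike, with 1 in each direction at an unadjusted p under 0.05 in edgeR. The lower one was Pggt1b, a prenyltransferase subunit (log2 fold change -0.36, edgeR adjusted p = 0.0279), a call that ended when either library labelled WT was left out, and under scaling by totals (edgeR adjusted p = 0.231, 0.0735 and 0.0793). Pdss2 and Pdss1, which make the tail of ubiquinone, and the prenyltransferase gene Rabggta had log2 fold changes of 0.55, 0.32 and -0.22 and did not pass (edgeR adjusted p = 0.0816, 0.168 and 0.185). Of 9 tested genes of oxysterols and cholesteryl esters, 1 was higher and 2 lower. Gpr183, a receptor for oxysterols on immune cells, was 1.36-fold higher (edgeR adjusted p = 0.0142, or 0.0716 without KO replicate 1 and 0.0912 without WT replicate 1). Sult2b1, a sterol sulfotransferase, and Lipa, the lysosomal lipase that frees cholesterol, changed by -0.91 and -0.19 on the log2 scale (edgeR adjusted p = 0.0181 and 0.0254). Sult2b1 overlaps Lmtk3 on the opposite strand and is uncertain, and leaving out WT replicate 2 ended its call (edgeR adjusted p = 0.239). The call of Lipa ended under scaling by totals, under the replicate block and without KO replicate 1 or either library labelled WT (edgeR adjusted p between 0.0708 and 0.193). Soat2, the other esterifying enzyme, had a log2 fold change of 0.55 and did not pass (edgeR adjusted p = 0.0566).

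**Figure D5:**
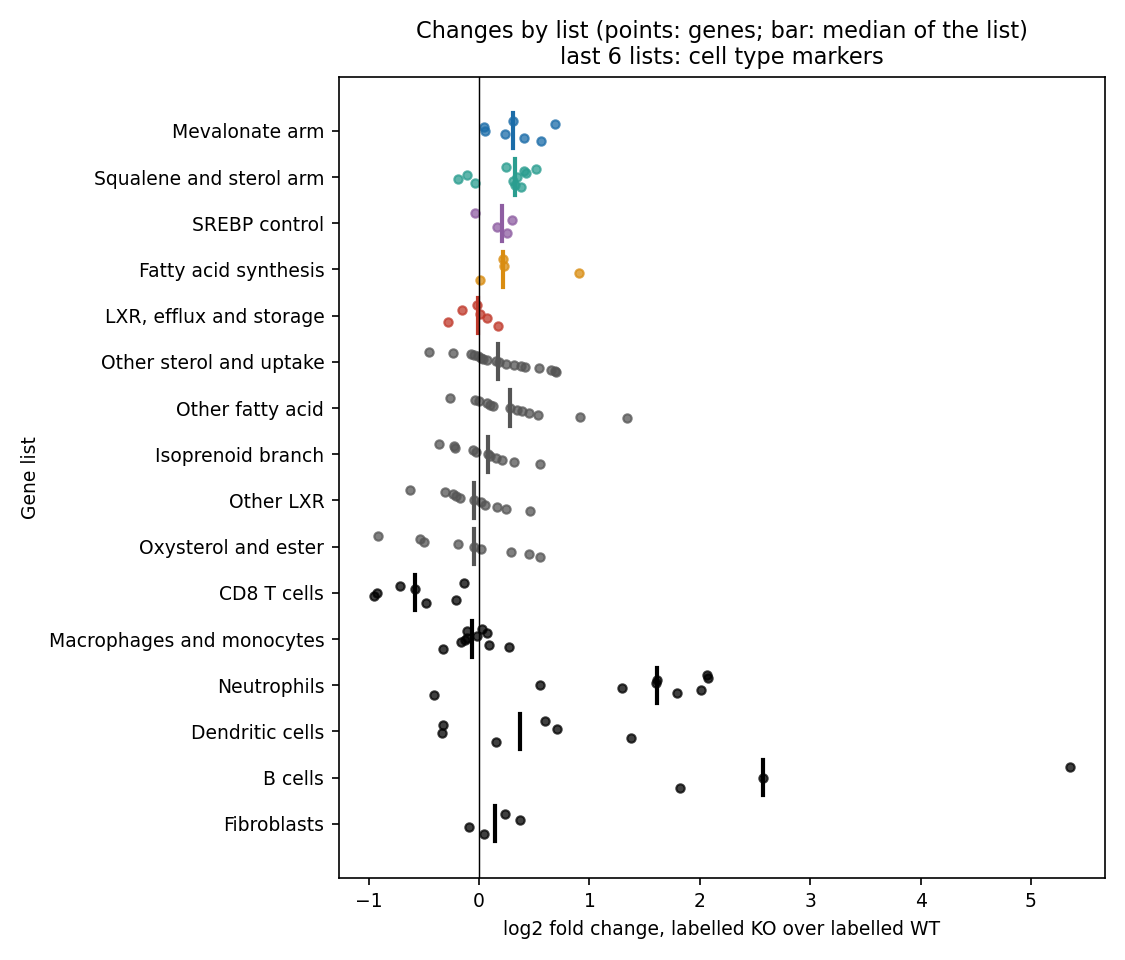
Log2 fold changes, libraries labelled KO over libraries labelled WT, of the genes in each list (points) with the list's median (bar). The synthesis lists lie mostly right of 0 (medians 0.30 and 0.33), the LXR, efflux and storage genes around 0 (median -0.0072), the CD8 T cell markers left of 0 (median -0.585) and the neutrophil markers right of it (median 1.61).

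The make-up of the sorted RNA differed between the groups as well. Of all tested genes, 10.1% were called higher and 11.0% lower. Both libraries labelled KO lay above both labelled WT in 29.7% of them, and below in 30.0%. Summed CPM of 7 CD8 T cell markers was 1889 and 1862 in the libraries labelled KO and 2754 and 2812 in those labelled WT, with 7 of 7 lower in both libraries labelled KO and 5 of them passing the test. Of these 7, only Cd8a and Cd8b1 encode CD8 chains, the others being genes of T cells in general. The tumour line is itself derived from a T lymphoma, and its share in these counts was not tested. The 9 neutrophil markers summed to 1615 and 1640 CPM in the libraries labelled KO and to 522 and 526 CPM in those labelled WT, with 8 of 9 higher in both libraries labelled KO and 7 passing. The 10 macrophage and monocyte markers, of which 1 passed as higher and 1 as lower, summed to 17889 and 18595 CPM in the libraries labelled KO and to 18092 and 18776 CPM in those labelled WT, so that these overlapped, with a median log2 fold change of -0.062. The 6 dendritic cell markers summed to 288 and 295 CPM in the libraries labelled KO and 176 and 184 CPM in those labelled WT. Most of that gap was 1 gene, Siglech, at 168 and 174 CPM in the libraries labelled KO and 67.1 and 64.9 CPM in those labelled WT, and of the 6 markers 2 passed as higher and 1 as lower. The 4 fibroblast markers, 2 of which passed as higher, summed to 346 and 360 CPM in the libraries labelled KO and 296 and 287 CPM in those labelled WT. The 3 B cell markers, 2 of which passed as higher, summed to 7.52 and 6.56 CPM in the libraries labelled KO and 1.14 and 0.920 CPM in those labelled WT. Mitochondrial transcripts took 6.57% and 6.99% of counts in the libraries labelled KO and 10.4% and 10.2% in those labelled WT. In bulk RNA, fewer cells of a type and less RNA per cell cannot be told apart, and the part that these differences play in the sterol result was not tested.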

How the data were processed

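Per the labels' protocols, RNA came from a Trizol extraction. Named without roles in the submitters' processing notes are the build mm10, featureCounts, Bowtie2, Trim Galore 0.4.4, DESeq2 and edgeR. Gene annotation and strandedness: not given in the sources used here. Each library had 1 deposited table of read counts and FPKM values per gene, per the file headers. The deposited counts entered every test, and the FPKM values made by the authors were used only to compare levels between genes.

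Counts were fitted with edgeR 4.0.16 in R 4.3.3 (TMM, robust quasi-likelihood fit, filterByExpr at its minimum count of 10), which removed 724 genes. Calls needed a Benjamini-Hochberg adjusted p under 0.05 over all tested genes. Each SE is the log2 fold change divided by the square root of F. Common biological variation was 9.31%. Replicates differed by more than counting noise (chi-square per degree of freedom 10 between the libraries labelled KO and 7.74 between those labelled WT), so none were merged. Alternatives included DESeq2 1.42.0 and limma-voom (limma 3.58.1). Positions and exon overlaps come from GENCODE M21 (GRCm38, called mm10). Lists and members were chosen with earlier results of these data known. Every member is named, as are up to 4 genes of each other list by lowest p, and some genes that this rule selects are not reported here.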

Additional observations from a re-analysis of the deposited data

How the results depend on the processing

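Directions of the 10 called genes held under every alternative tried, and 4 of them (Hmgcs1, Sqle, Cyp51, Dhcr7) passed in each at the adjusted p of 0.05. Members called higher numbered 10 with all libraries and 5 to 14 when 1 library was left out, sterol synthesis members 7 and 4 to 10, fatty acid members 1 and 0 to 2, and all genes 1354 higher and 1472 lower, against 714 to 1605 higher and 831 to 1787 lower. Library totals alone gave 17 members, 11 sterol synthesis members, 2 fatty acid members, 1 cholesterol efflux and LXR member and 2105 of all genes higher, with 1013 of all genes lower. An adjusted p under 0.1 gave 1 efflux and LXR member and 2 fatty acid members higher. Fasn made 2 fatty acid members with RLE factors, upper quartile factors or a count minimum of 50. Members called lower were 0 in every setting.

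Only members that did not pass changed sign, none of them passing after the change. Log2 fold changes became 0.046 for Ebp, 0.051 for Srebf1 and 0.063 for Nr1h2 with library totals alone. Without KO replicate 1 they were -0.025 for Pmvk, 0.0021 for Ebp, 0.0050 for Srebf1 and -0.042 for Abcg1, and without KO replicate 2 they were -0.0998 for Mvk, -0.024 for Scd2 and -0.031 for Abca1. Srebf1 was at 0.024 without WT replicate 1. Without WT replicate 2 they were -0.089 for Mvk, -0.040 for Pmvk, -0.072 for Scd2 and -0.048 for Abca1. Over the settings that left out 1 library, these log2 fold changes ran from -0.0998 to 0.19 for Mvk, -0.040 to 0.16 for Pmvk, -0.083 to 0.0021 for Ebp, -0.091 to 0.024 for Srebf1, -0.072 to 0.10 for Scd2, -0.048 to 0.066 for Abca1 and -0.042 to 0.18 for Abcg1. The cause was not tested.

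The replicate numbers did not pair the libraries: same-numbered libraries deviated from their group means with a correlation of -0.0153. With the replicate number as a block, 11 members were higher and 0 lower, of 1393 higher and 1522 lower genes. Fdps then passed (log2 fold change 0.55, edgeR adjusted p = 0.0331). A library left out leaves its group with 1, which is assumed to vary like the other group. Genes of low count, such as Scd1, have wide intervals at this depth.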
